A study of Homo sapiens with 6 samples.

Results

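The PDE4 phosphodiesterases are encoded by 4 human genes, PDE4A, PDE4B, PDE4C and PDE4D. Peak regions called with an anti-ZNF469 antibody were collected from each gene plus 20 kb on either side. Gene spans were taken from GENCODE version 44 (hg38). Of 19108 regions of full-length ZNF469, 32 (0.167%) lay in these windows, 25 of them at PDE4D, 5 at PDE4B, 2 at PDE4C and 0 at PDE4A. Of 54 regions of dZF-ZNF469, 0 did. The genes were chosen by an earlier reading of these lists, in which PDE4D stood high in its number of full-length regions, so these counts are descriptions and were not tested.

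The regions come from CUT&RUN, in which an antibody bound to its target directs a nuclease to release the surrounding DNA for sequencing. An anti-ZNF469 antibody was used in LX-2 cells, an immortalized human line of hepatic stellate cells, which lay down collagen when the liver is injured. A stable piggyBac line carried a doxycycline-inducible transgene for full-length ZNF469 (clone3.4), and a second line carried dZF-ZNF469 (clone3.1), from which most zinc fingers were deleted. All cells received doxycycline at 1 µg/mL for 24 h. Each group of 3 libraries was deposited as 1 peak list, so there is no value per library, no replicate error and no test between the constructs. Construct and cell line cannot be told apart, and the labels do not say what the clone names refer to. A peak list measures no RNA, so the stellate identity of the cells and the activity of the PDE4 genes could not be checked here.

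PDE4 enzymes hydrolyze the second messenger cAMP. Adenylyl cyclases make cAMP after Gs-coupled receptors are activated, protein kinase A, EPAC and POPDC proteins sense it, and CREB-family factors carry the signal to genes with cAMP response elements (CREs). Each PDE4 gene has several promoters, which give long, short and super-short enzyme forms that differ in their regulatory N-terminal domains and in the anchoring proteins that hold them in place. In fibroblasts and stellate cells, cAMP signaling is known to restrain activation, and PDE4 inhibitors raise cAMP in many cell types.

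The sequences with the highest fold enrichment at PDE4D and PDE4B are shown first, because these genes hold 30 of the 32 regions. Each is the plus strand of hg38 over 200 bp around the summit, with any AP-1 site, TGACTCA or its reverse complement TGAGTCA, in capitals.
PDE4D intron 2, chr5:60103033-60103232: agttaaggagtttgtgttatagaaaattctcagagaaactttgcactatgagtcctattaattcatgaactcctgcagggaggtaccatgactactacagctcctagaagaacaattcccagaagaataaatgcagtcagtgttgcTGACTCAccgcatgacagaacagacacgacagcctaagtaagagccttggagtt
PDE4B intron 1, chr1:65821134-65821333: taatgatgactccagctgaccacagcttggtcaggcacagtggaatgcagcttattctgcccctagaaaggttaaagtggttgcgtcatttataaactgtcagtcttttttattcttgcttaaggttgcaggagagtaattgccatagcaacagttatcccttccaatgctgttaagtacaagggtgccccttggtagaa
The PDE4D window held 1 AP-1 site, and the PDE4B window held 0. AP-1 factors of the JUN and FOS families bind this motif.

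The AP-1 sites of the 3 PDE4D regions with the highest fold among those with a site, and of the single such PDE4B region, are shown with 10 bases on each side. AP-1 is in capitals.
PDE4D intron 2, chr5:60103169-60103195: tcagtgttgcTGACTCAccgcatgaca
PDE4D intron 1, chr5:60196667-60196693: taaaattcccTGAGTCAtcatgaggaa
PDE4D intron 1, chr5:60334500-60334526: tcaggatttcTGAGTCAtctcctgctc
PDE4B intron 1, chr1:65825941-65825967: tatggcaatcTGACTCAtatttaaatt
The sites differ in orientation, and the highest-fold PDE4D region and the PDE4B region carry TGACTCA on the plus strand.

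PDE4D held most of the PDE4 regions. It lies on the minus strand of chromosome 5 from 58969038 to 60522120 (1553 kb), and its window of 1593 kb held 25 regions, or 1.57 per 100 kb. By count it ranked 3 of 20033 protein-coding gene records. At least 1 full-length region lay in 52.0% of those genes plus 20 kb, and in 3 of the 4 PDE4 windows, that of PDE4C through its flank alone. Longer genes can hold more regions, so density was compared among genes of at least 500 kb. Of 323 such genes, 74.9% held a region, the median density was 0.290 per 100 kb and the upper quartile 0.594. Of these, 18 genes, PDE4D included, were as dense as PDE4D or denser. Among all 20033 genes plus 20 kb, 6568 were at least as dense, PDE4D included, and the upper quartile was 1.98 per 100 kb. The short PDE4C window, with 2 regions in its flank, was denser than that of PDE4D, at 2.49. Summed over all protein-coding genes plus 20 kb, density was 1.01 regions per 100 kb, with regions and sequence in overlapping windows counted once per gene. The same sum over the 323 long genes gave 0.410, and the genome had 0.619.

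The surroundings of PDE4D were also dense. Chromosome 5 as a whole held 0.903 regions per 100 kb, and 1 Mb on each side of the window held 1.20 and 1.40. The PDE4D value of 1.57 was above those of both neighbors, by differences that have no replicate error and were not tested. Median local background, the number of fragments the peak caller expected at the summit, was 2.21 at PDE4D, 2.76 and 3.49 in the adjoining 1 Mb and 2.47 over the remaining regions of chromosome 5. Over all full-length regions it was 1.82. Median backgrounds were thus above the whole-list median in both adjoining stretches and over the rest of chromosome 5 taken as a whole, and not at PDE4D alone. The part of background in the density was not tested.

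PDE4B was less dense. It lies on the plus strand of chromosome 1 from 65792514 to 66374579 (582 kb), and its 5 regions gave 0.804 per 100 kb of window. Among the 323 long genes, 58 were at least as dense, PDE4B included. The adjoining 1 Mb stretches held 0.700 and 0.900, on either side of the PDE4B value, and chromosome 1 held 0.744.

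PDE4A and PDE4C had no region inside the gene. PDE4A (chromosome 19, 10416773 to 10469630, plus strand, 52.9 kb) had 0 in its whole window, and the nearest full-length region lay 35.9 kb away in TYK2, which encodes a Janus kinase, with a fold of 12.1 and 22 fragments at its summit. PDE4C (chromosome 19, 18207965 to 18248200, minus strand, 40.2 kb) had 2 in its downstream flank. Both cover the start of another gene, MPV17L2, which encodes a mitochondrial protein, and RAB3A, a GTPase of secretory vesicles. A region inside the gene was found for 33.6% of all protein-coding genes and for 35.5% of those of 30 to 60 kb, so most genes of that length had none either.

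**Figure D1:**
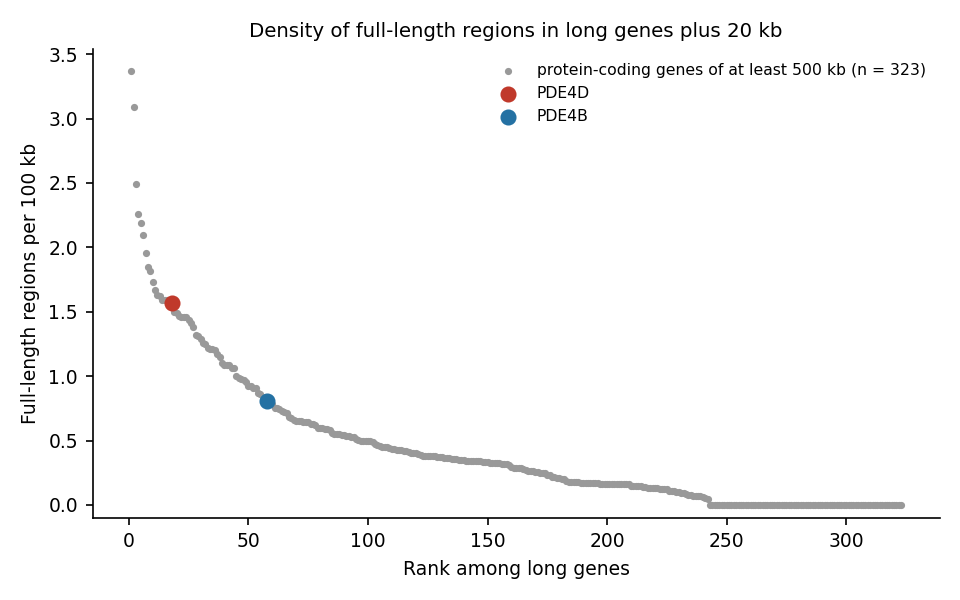
Full-length regions per 100 kb (vertical axis) of the 323 protein-coding genes of at least 500 kb plus 20 kb, ranked from dense to sparse (horizontal axis), 1 point per gene. PDE4D (red) is at 1.57 and PDE4B (blue) at 0.804, against a median of 0.290.

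Of the 32 PDE4 regions, 28 were in introns (87.5%), 0 overlapped an exon of a PDE4 transcript, 1 lay upstream of its gene and 3 downstream. Introns make up 91.7% of the sequence of the 4 windows, so this tally follows the makeup of the windows. Over the whole list, 38.1% of regions lay in introns of protein-coding genes. The coding transcript PDE4D-208, which starts at 60488098, served as the frame for PDE4D. Its intron 3 is 773 kb long, or 51.0% of the transcript, and held 13 of the 25 PDE4D regions (52.0%), at 1.68 per 100 kb. Introns 1 and 2, of 302 and 197 kb, held 2 each, intron 4 held 2 in 22.2 kb, intron 7 held 3 in 142 kb and intron 8 held 1. The remaining 2 PDE4D regions lay upstream of this transcript. In PDE4B-202, intron 1 (120 kb) held 2 of the 5 regions, while intron 3, the longest at 329 kb, held 0. The other PDE4B regions were in introns 7 and 12 and past the gene end.

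Within PDE4D, 8 regions fell within 105 kb of intron 3, from 59769853 to 59875191. They lay between the promoter of PDE4D-203 and PDE4D-206 and that of PDE4D-201, PDE4D-209 and PDE4D-216, a segment with 6.41 regions per 100 kb. The stretch was picked as the densest 150-kb window beginning at a PDE4D summit. Across the genome, 6% of the 150-kb windows that began at a full-length summit held at least 8 summits. That share covers windows that were not picked, so it does not measure how unusual the stretch is. Pileups of the 8 ran from 9 to 56 with a median of 26.5, against 13 to 34 with a median of 20 for the other 17 PDE4D regions. Their backgrounds ran from 2.27 to 4.68, against 1.09 to 3.19. The median fold was 7.44 and 7.30, so pileup and local background were both higher in the dense stretch and fold was nearly level. An AP-1 site lay near the summit in 2 of the 8 and in 7 of the 17.

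Other stretches of PDE4D were empty. The longest gap between neighboring regions ran from 59206505 to 59484022 (278 kb) and took in the starts of PDE4D-210, PDE4D-207 and PDE4D-227. The segments of 115, 73.6 and 80.9 kb between neighboring coding promoters, and the last 50.9 kb of the window, held 0 regions. The 479-kb segment from PDE4D-222 to PDE4D-203 held 4 regions, all with an AP-1 site. The median gap between neighboring PDE4D regions was 32.8 kb, against 44.5 kb over all neighboring full-length regions.

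**Figure D2:**
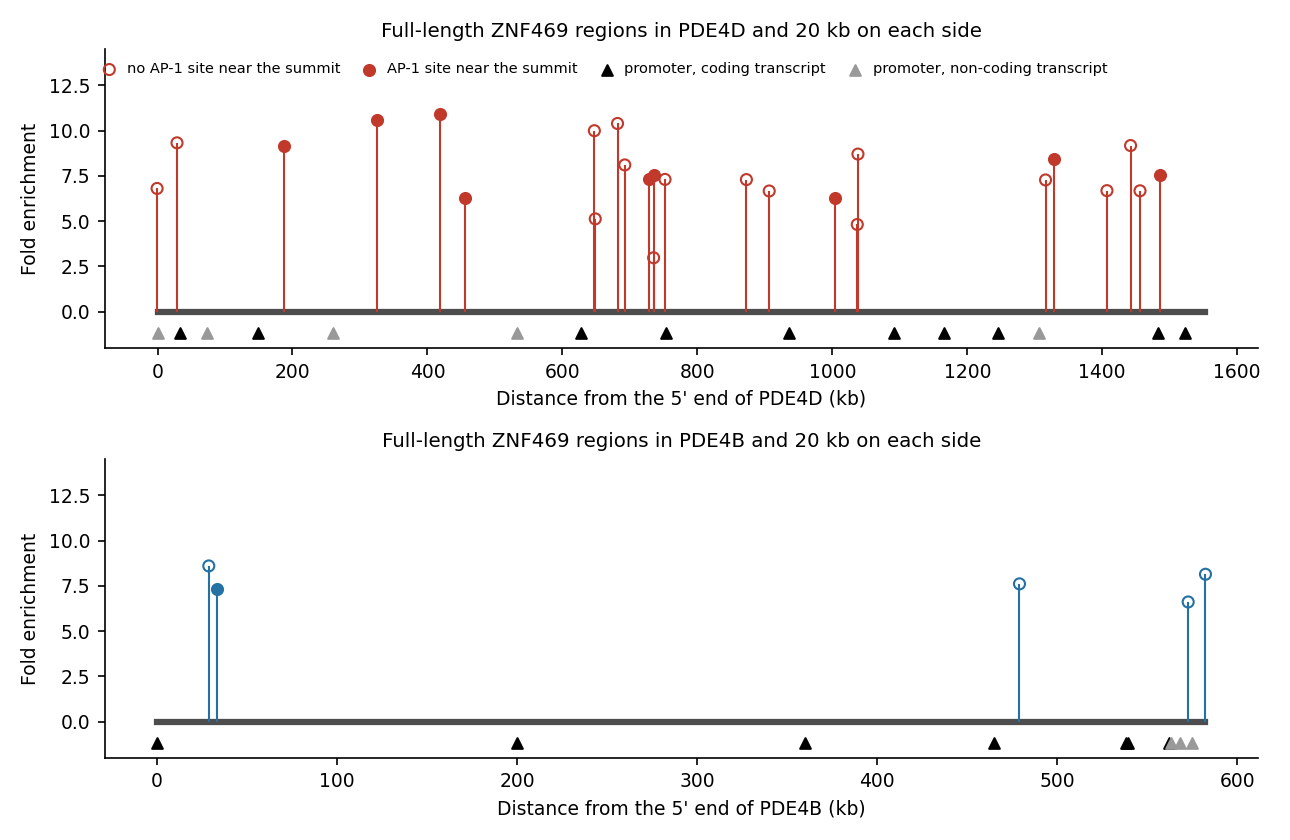
Fold enrichment (vertical axis) of each full-length region of PDE4D (upper panel, n = 25) and PDE4B (lower panel, n = 5) against the distance of its summit from the 5′ end of the gene in kb (horizontal axis). Filled circles have an AP-1 site within 100 bp of the summit, open circles have none, the grey bar is the gene, and triangles mark promoters of coding (black) and non-coding (grey) transcripts. PDE4D regions gather between 647.4 and 752.1 kb, and none lies between 1038 and 1316 kb.

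The regions were placed next against the alternative promoters of the PDE4 genes. Transcription starts within 500 bp of each other were joined, which gave 39 promoters, 30 of them of coding transcripts. A full-length region lay within 1 kb of 1 promoter and within 3 kb of 4. Of the 30 coding promoters, 0 had a region within 1 kb and 2 within 3 kb. Among promoters of all protein-coding genes, joined in the same way, 8.47% had a region within 1 kb. Of those with a coding transcript, 12.7% did. At these shares most of 39 promoters would lack a region too. Whether the PDE4 counts fall below these shares was not tested. The median distance to the nearest region was 51.6 kb for the 7 promoters of PDE4A, 20.8 kb for the 10 of PDE4B, 21.9 kb for the 7 of PDE4C and 36.4 kb for the 15 of PDE4D. Among all full-length regions, 28.9% were within 1 kb of the start of any transcript. Of the 32 PDE4 regions, 3 were (9.38%), and 2 of these are the regions at MPV17L2 and RAB3A. The third was the one at PDE4D.

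That region, on chromosome 5 from 60522557 to 60522914, lay 0.437 kb upstream of the start of the non-coding transcript PDE4D-215, inside the long noncoding RNA gene PART1. It had a fold of 6.81, a −log10 p-value of 11.8 and a pileup of 15 fragments (95% Poisson limits 8.40 to 24.7), below the median of the list in each. Its 200 bp are shown because it is the only region within 1 kb of a PDE4 start.
PDE4D upstream, chr5:60522635-60522834: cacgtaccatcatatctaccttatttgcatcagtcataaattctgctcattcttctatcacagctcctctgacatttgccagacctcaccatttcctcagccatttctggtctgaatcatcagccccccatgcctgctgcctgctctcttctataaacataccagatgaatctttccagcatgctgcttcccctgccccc
The window held no exact AP-1, CRE, TEAD or RUNX site. TEAD (ACATTCC) and RUNX (TGTGGTT) were searched on both strands as AP-1 was, and the CRE as TGACGTCA, and none of the 4 motifs contains another.

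The coding promoters with the closest regions were also in PDE4D. The region from 59769853 to 59770187 ended the dense stretch 1005 bp upstream of PDE4D-216, just outside the 1-kb limit, with a fold of 7.31 at 25 fragments (16.2 to 36.9). The region from 59036370 to 59036724 lay 2.79 kb downstream of the start of PDE4D-204, with a fold of 7.56 at 23 fragments (14.6 to 34.5). Upstream of the promoter of PDE4D-208, PDE4D-213, PDE4D-217, PDE4D-219 and PDE4D-225, the nearest region was 4.82 kb away. It ran from 60492916 to 60493300, also inside PART1, with a fold of 9.33 at 29 fragments (19.4 to 41.6). At PDE4B, the region from 66364904 to 66365366 in intron 12 lay 2.13 kb upstream of the non-coding PDE4B-208, and the first coding promoter, that of PDE4B-201 and PDE4B-202, was 28 kb from a region.

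**Figure D3:**
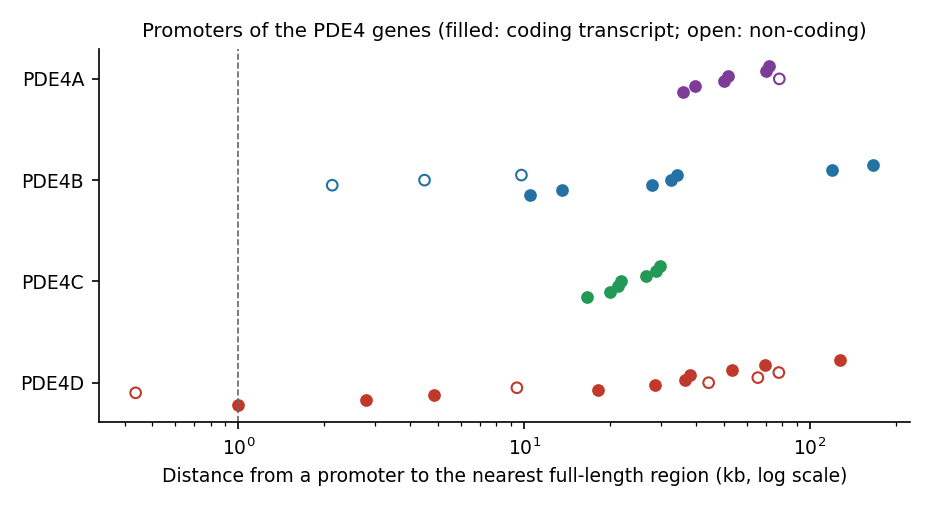
Distance from each of the 39 PDE4 promoters to the nearest full-length region in kb (horizontal axis, log scale), by gene. Filled circles are promoters of coding transcripts, open circles of non-coding ones, and the dashed line is 1 kb. A single open PDE4D circle, at 0.437 kb, lies left of the line.

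The strength of the regions was read from the deposited fold enrichment and −log10 p-value, and from the pileup, the number of fragments over the summit in the pooled libraries, which both values give back. Poisson limits beside a pileup cover counting error only. Over the 32 regions the median fold was 7.5, against 7.36 over the whole list, the median −log10 p-value 16.7 against 15.0 and the median pileup 23 against 20. The upper 25% of the list by fold took in 9 of the 32 (28.1%), and the highest score of 1000 was given to 12 (37.5%), against 33.0% of all regions. The PDE4 regions thus lay close to the middle of the list.

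The 3 PDE4D regions with the highest fold were all intronic. The first, from 60103038 to 60103301 in intron 2, had a fold of 10.9 over a low background of 1.21, with a pileup of 23 (14.6 to 34.5), and exceeded 94.1% of the list by fold. The second, from 60196449 to 60196865 in intron 1, had a fold of 10.6 at 33 fragments (22.7 to 46.3). Both carry the AP-1 sites shown above, 49 and 89 bp from the summit. The third, from 59840265 to 59840743 in the dense stretch of intron 3, had a fold of 10.4 at 46 fragments (33.7 to 61.4) and no exact AP-1 site within 100 bp of its summit.

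By pileup the order differed. The highest of all 32 was the region from 59874560 to 59875191 at the 5′ edge of the dense stretch, with 56 fragments (42.3 to 72.7) over a background of 4.68, a fold of 10 and a −log10 p-value of 40.4, above 98.7% of the list by pileup. The region at 59840265 followed with 46, and then that from 59484023 to 59484477, also in intron 3, with 34 (23.5 to 47.5) and a fold of 8.71. These intervals overlap between neighbors in the order. At the other end, the region from 59786858 to 59787026 had 9 fragments (4.12 to 17.1), a fold of 2.98 and a −log10 p-value of 3.76, and lay 51 bp from a region with 24. The other PDE4D regions, apart from those named, had folds from 4.82 to 9.18.

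**Figure D4:**
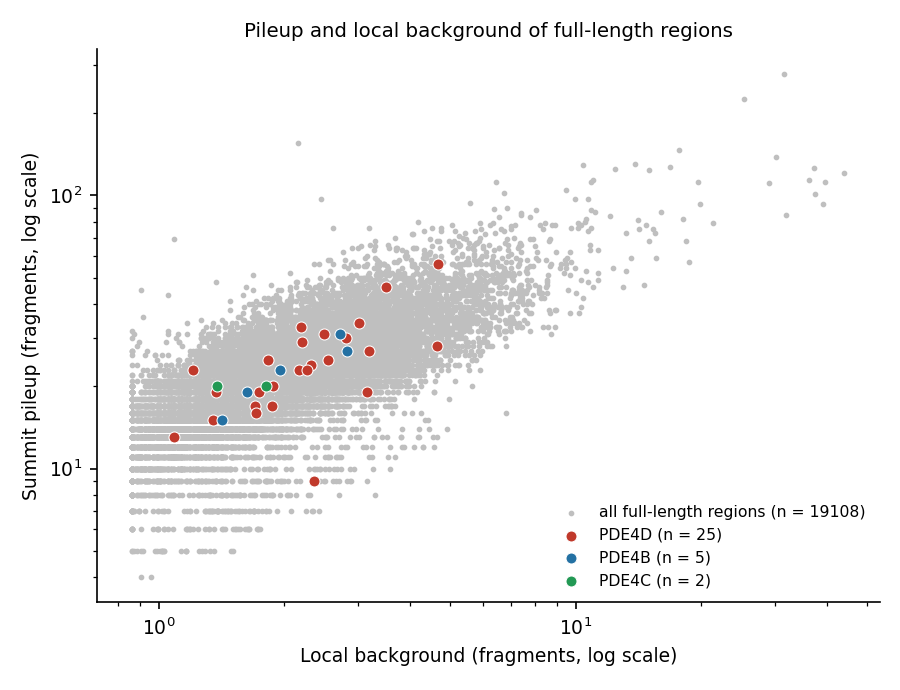
Summit pileup (vertical axis, fragments, log scale) against local background (horizontal axis, fragments, log scale) for all 19108 full-length regions (grey) and those of PDE4D (red), PDE4B (blue) and PDE4C (green), 1 point per region. The PDE4 regions lie within the grey cloud, from 9 to 56 fragments over backgrounds of 1.09 to 4.68.

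PDE4B regions were narrower in range. The highest, from 65820914 to 65821432 in intron 1, had a fold of 8.6, a −log10 p-value of 22.7 and a pileup of 31 (21.1 to 44). The region from 65825779 to 65825988 in the same intron, the one with an AP-1 site, had a fold of 7.31 at 27 fragments (17.8 to 39.3). Just past the 3′ end, 0.122 kb from the gene, the region from 66374701 to 66375244 had a fold of 8.14 at 23 fragments (14.6 to 34.5). The region from 66271294 to 66271631 in intron 7 had a fold of 7.61 at 19 fragments (11.4 to 29.7), and that in intron 12 a fold of 6.61 at 15 fragments (8.40 to 24.7). All 5 intervals overlap, so the pileups are not separated by counting error. The next regions outside the PDE4B, PDE4D and PDE4C windows were 90.1, 217 and 26.7 kb from the genes, while those just inside but outside the gene were at 0.122, 0.437 and, as the farther of 2, 14.7 kb.

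The 2 regions in the PDE4C window had a pileup of 20 each (12.2 to 30.9). The region from 18192709 to 18193270, over the MPV17L2 start, had a fold of 8.82, and that from 18203997 to 18204506, over the RAB3A start, 7.47. They were the richest in G and C of the 32, at 57.0% and 67.0% in the 200 bp around the summit, against a median of 42.2% over the 32, 45.5% over all regions and 57.5% over those within 1 kb of a start. The first is shown as the region of highest fold in this window.
MPV17L2 start, chr19:18192921-18193120: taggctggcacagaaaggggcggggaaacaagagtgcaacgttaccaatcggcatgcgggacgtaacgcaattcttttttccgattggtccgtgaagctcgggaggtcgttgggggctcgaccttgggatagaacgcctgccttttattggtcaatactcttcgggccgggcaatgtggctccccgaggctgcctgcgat
No AP-1 site was found in it. The nearest PDE4C promoter was 27.9 kb from this region and 16.6 kb from the one at RAB3A.

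The share of PDE4 regions with an AP-1 site was close to that of the whole list. Of the 32, 10 had an exact site within 100 bp of the summit (31.2%, 95% Wilson interval 18% to 48.6%), against 32.2% of all full-length regions. Of full-length regions over 3 kb from any start, the class that 26 of the 32 belong to, 38.7% had one, and 9 of those 26 did (34.6%, 19.4% to 53.8%). PDE4D had 9 of 25 (36.0%, 20.2% to 55.5%), PDE4B 1 of 5 and PDE4C 0 of 2. In 200-bp windows tiled over the same 4 loci outside the regions, 352 of 11833 held a site (2.97%, 2.68% to 3.30%). AP-1 was thus more frequent at PDE4 summits than in the sequence around them, with intervals that do not overlap. The share at PDE4 summits was near that of the whole list, and nothing in it is particular to the PDE4 genes.

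Within the regions, 5 of the 10 AP-1 sites were centred within 25 bp of the summit (50.0%) and 6 within 50 bp (60%), against 31.6% and 60.1% of the 6899 sites of all regions. Regions with a site had a median fold of 7.55 and a median pileup of 23, and those without 7.39 and 21.5, while over the whole list the medians were 7.51 and 20 with a site and 7.28 and 20 without. The medians with and without a site thus lay close together, and the PDE4 regions with the highest pileups, at 56 and 46 fragments, lacked one near the summit. When the middle base was left free (TGANTCA), 18 of 32 PDE4 regions had a match (56.2%, 39.3% to 71.8%), against 41.9% of all regions, and both of these regions were among them.

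The other motifs were rare. TEAD and RUNX sites each lay in 2 of the 32 windows (6.25%, 1.73% to 20.1%), all of them in PDE4D, against 7.70% and 7.48% of all regions. An exact CRE, the element bound by CREB, was present in 1 PDE4 region, that of PDE4B intron 7, and in 0.686% of all regions. It is shown in capitals with 10 bases on each side, a site chosen after its presence was known.
PDE4B intron 7, chr1:66271433-66271460: gttatgctatTGACGTCAatggagtcat
This region lay 13.6 kb downstream of the promoter of PDE4B-204, PDE4B-209 and PDE4B-210. A count of 1 of 32 carries an interval of 0.554% to 15.7%, which includes the share of the whole list. Among regions over 3 kb from any start, the CRE share was 1 of 26 for PDE4 (3.85%, 0.682% to 18.9%) and 0.19% for the list, below that interval, and the PDE4 value rests on this single region.

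**Figure D5:**
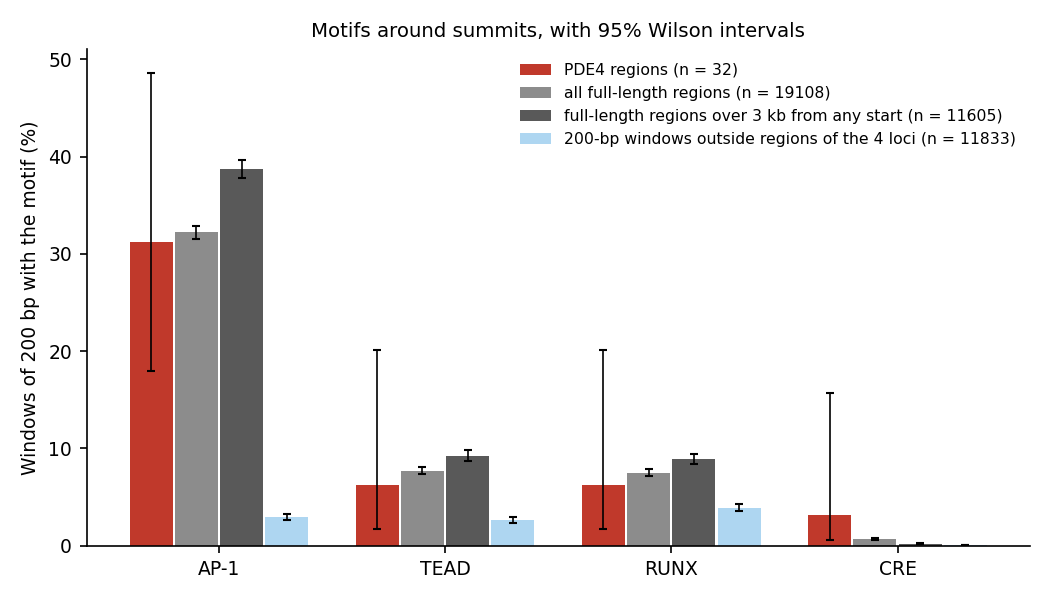
Percent of 200-bp windows with an exact AP-1, TEAD, RUNX or CRE motif, in the 32 PDE4 regions, all full-length regions, full-length regions over 3 kb from any start, and windows outside regions of the 4 PDE4 loci. Error bars are 95% Wilson intervals, and for AP-1 the bars stand at 31.2%, 32.2%, 38.7% and 2.97%.

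With dZF-ZNF469, 0 of 54 regions lay in the PDE4 windows. At least 1 dZF region was present at 0.125% of protein-coding genes plus 20 kb. Had the 54 records been spread as the full-length ones, 0.0904 would have fallen at the PDE4 genes, so a count of 0 does not set PDE4 apart. The nearest dZF region to PDE4A, from 10205044 to 10205284 on chromosome 19, was 0.211 Mb away, and those nearest to PDE4C, PDE4B and PDE4D were 8, 34.3 and 41.4 Mb away. The lowest backgrounds of the full-length and dZF pools were 0.865 and 0.625 fragments, a ratio of 1.38. This ratio was used as a stand-in for depth, which was not measured from library totals. With PDE4 pileups and backgrounds divided by this ratio, 31 of the 32 regions exceeded the lowest dZF −log10 p-value of 7.62. The dZF median of 22.0 was exceeded by 2. The lowest dZF value is no calling limit, because the lists were filtered by IDR and the full-length list holds a PDE4D region at 3.76. Whether depth bears on the dZF count of 0 was not tested.

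The genes that make, sense and pass on cAMP were examined the same way, as gene plus 20 kb, in lists of pathway members. Of 66 genes outside the PDE4 family, 45 held a full-length region, and 0 held a dZF region. By list, the share of genes with a full-length region ran from 50.0% to 100%, against 52.0% of all protein-coding genes. These genes differ in length, and no list was tested against others.

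Among 20 other phosphodiesterases, 11 held a region (55.0%). PDE7B, which like PDE4 is specific for cAMP, had 7 regions at 1.82 per 100 kb, with folds of 5.15 to 10.5, 3 AP-1 sites and 1 region within 1 kb of its start. PDE1C, a calmodulin-dependent enzyme, had 3. The cGMP-specific PDE5A had 2, as did PDE1A, PDE3A and PDE10A, and was the densest of these. PDE1B, PDE3B, PDE6A, PDE6B, PDE6C, PDE8A, PDE8B, PDE9A and PDE11A had 0.

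Of 12 adenylyl cyclase and Gs genes, 6 held a region (50.0%). ADCY9, a membrane cyclase, had 5 regions with folds up to 13.7, none with an AP-1 site. The soluble cyclase ADCY10 had 3 and GNAL, a Gs-type α subunit, 2. ADCY1, ADCY2, ADCY3, ADCY4, ADCY6 and ADCY7 had 0.

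Among the 12 cAMP effectors, 9 held a region (75%). PRKACB, a catalytic subunit of protein kinase A, had 4, of which 3 had an AP-1 site. The cAMP-binding membrane protein POPDC2 and the regulatory subunit PRKAR2B had 3 each, and POPDC1, PRKACG and PRKAR2A had 0. Among the 12 anchors and partners of PDE4, 9 held a region (75%), led by the anchoring proteins AKAP6 with 5 and AKAP13 with 4, and by ARRB1, a β-arrestin that brings PDE4 to receptors, with 3. AKAP1, AKAP12 and PDE4DIP had 0. All 10 CREB-family and coactivator genes plus 20 kb held at least 1 region, CREB3 and EP300 through the flank alone, beside 52.0% of all protein-coding genes. CREB1 had 3, with pileups of 21 to 73 and 1 region within 1 kb of its start. The coactivator CREBBP had 2, and CREB3 had 1, as did CREB5, CREM, ATF1, CRTC1, CRTC2, CRTC3 and EP300. The single regions of CREM, CRTC2 and EP300 also lay within 1 kb of a start of their gene.

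Genes with a pattern like that of PDE4D were looked for among 89 protein-coding genes of at least 500 kb with at least 5 regions, by density and median fold on the log2 scale and by AP-1 share, each divided by its SD over those genes. The nearest was DPYD, which encodes the enzyme that starts pyrimidine breakdown, with 14 regions at 1.46 per 100 kb, 35.7% with AP-1 and a median fold of 7.20, at a distance of 0.258. SBF2, a myotubularin-related protein, followed at 0.294, then the carbohydrate kinase FGGY at 0.519, and the potassium channel genes KCNAB1 at 0.544 and KCNQ5 at 0.605. Their AP-1 shares ran from 33.3% to 44.4%, and PDE4D itself had 36.0% and a median fold of 7.35.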

How the data were processed

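The 6 CUT&RUN libraries fell into 2 groups of 3 by their labels. The authors pooled each group and deposited 1 IDR-filtered peak list per group (IDR keeps peaks ranked alike in replicates). The deposited lists give a score that scales the IDR, a fold enrichment and a −log10 p-value for each record. The submitters' processing notes name bcl2fastq, Bowtie2 2.3.4.3, MACS2 2.2.5, R 4.2.1, deepTools 3.5.1 and hg38, and do not name a control library. The −log10 q-value was not used. Library totals were not analysed here, so depth was not measured beyond the pileups.

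Records did not overlap within a list. Pileup and local background were solved from fold, (pileup + 1)/(background + 1), and the Poisson −log10 p-value. A whole-number pileup explained 100% of records in both lists within a tolerance of 0.001 in −log10 p (largest miss 6.9e-05). On 424 simulated records, the procedure returned the right pileup for 100%. Those records were made with the same formulas, so this checks the solving alone. A region belonged to a gene when it overlapped the GENCODE version 44 span plus 20 kb by at least 1 bp. Motifs were searched in hg38 in 200 bp around the summit. Python 3.11.15, pandas 2.3.3, SciPy 1.17.1, pysam 0.24.0 and Matplotlib 3.10.9 were used. All 70 genes of the lists were found, POPDC1 under its older symbol BVES.

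The genes, lists, motifs and rules were chosen with earlier results of these data known. Named genes were the 4 PDE4 genes, those overlapping their windows, the 3 with the most regions per list (ties by density), those with none, and the 5 nearest to PDE4D. Named regions were the 3 highest by fold and by pileup per gene and those within 1 kb of a start. TYK2 (the nearest region outside the PDE4A window), genes tied with a named one, regions at other distances from promoters, the lowest region and the CRE site were added after their values were seen. Shares have 95% Wilson intervals and pileups exact Poisson limits, for counting error alone. No tests were made. Alternatives changed the records used, flank, motif, window, promoter distance and transcripts.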

Additional observations from a re-analysis of the deposited data

How the results depend on the processing

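The 9 results were recomputed under 52 alternatives, none added later. In 32 of these a share stayed within its 95% Wilson interval, a count or density within 1.5 times, or a median within 1 SD of the PDE4 regions (1.70 for fold, 7.29 for −log10 p). These limits are wide. They took in a promoter share of 12.5% at 3 kb, against 3.12%, and a median −log10 p-value of 23.8 in the upper 25%, against 16.7. The dZF count stayed at 0 under all 6 of its alternatives. Keeping the upper 50% of records by fold, the upper 25%, or those with an IDR of at most 0.01 lowered the counts by construction. The PDE4 regions were then 17, 9 and 20. Density was 0.753, 0.502 and 1.00 per 100 kb at PDE4D and 0.482, 0 and 0.482 at PDE4B. Other cAMP genes with a region numbered 25, 17 and 28, and the share of PDE4 regions within 1 kb of a PDE4 start was 0 under each. The median fold in the upper 25% was 9.33. That promoter share was also 0 with protein-coding transcripts only and with no flank, since it rests on 1 region. The AP-1 share was 56.2% with TGANTCA, against 41.9% of all regions, and 15.6% within 100 bp around the summit, against 19.1%. With the whole record it was 34.4%, against 44.1%. The PDE4 share was thus above that of the list with the wider motif, and below it within 100 bp and with the whole record. The intervals of PDE4 in these alternatives (39.3% to 71.8%, 6.86% to 31.8% and 20.4% to 51.7%) include the list's share each time. The PDE4 share was also above the list's in the upper 50% by fold and with no flank. It was below in the upper 25% and with an IDR of at most 0.01.

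No paired analysis was possible because the 3 libraries of a group share 1 list without values of their own, and for the same reason no library was left out in turn. Pileups of 9 to 56 fragments set wide counting limits, a site missing from a list may lie below the peak threshold, and 32 regions leave a share such as that of AP-1 uncertain by 18% to 48.6%.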
